A study of Arabidopsis thaliana with 24 samples.

Results

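The transcripts described are those that were at least 2-fold lower in constant light than in light-dark cycles whatever the genotype or treatment of the seedlings. The members were chosen by the measured light difference: a probe set of the ATH1 array was taken when its mean log2 level in constant light (LL) minus its mean in light-dark cycles (LD) was -1 or lower in each of 4 settings, which are the combinations of genotype and treatment. Of 22746 probe sets, 147 met this rule, and 144 remained after GI, COR15A and AT5G51440 were left out by name. Of the 144 members, 53 had 1 gene name in the annotation, 4 had several and 87 had none. The opposite rule, a level higher by 1 or more in LL in each setting, was met by 53 probe sets.

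The data are 24 arrays of whole Arabidopsis thaliana seedlings, 3 for each of 8 groups that cross genotype, treatment and light. The genotypes were ALC::TOC1, in which an ethanol switch drives the clock repressor TOC1, and wild-type Col-0. All seedlings had 12 days of 12 h light and 12 h dark, and then spent 1 more day in LL or stayed in LD. They were 13 days old when they were kept for 3 h under MS medium with 2.5% ethanol or, as mock, without it, and they were harvested at ZT1. ZT1 is 1 h after the time of lights-on, so the treatment of LD seedlings began in the dark. The medium of every group, mock included, contained the proteasome inhibitor MG132, given in the labels as 20 mM. No line carrying the ethanol switch without TOC1 was among the samples, so an effect of the switch and an effect of TOC1 cannot be told apart. Nothing in the labels tells whether the 3 replicates of a group came from separate cultures, so p-values cover only the spread between these samples.

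Chaperones are proteins that keep other proteins from clumping and help them fold. Small heat shock proteins hold unfolded proteins in solution, and Hsp70 and Hsp90 refold them with the help of co-chaperones such as DnaJ proteins, Hop, Fes1 and immunophilins of the FKBP type. Their genes are switched on by heat shock factors when unfolded protein builds up, as it does in heat or when the proteasome is blocked. The transition from dark to light is itself a signal in seedlings, read by phytochromes and cryptochromes and passed on by transcription factors such as HY5 and its homolog HYH. Light-dark cycles contain that transition each day and constant light does not.

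Chaperone and co-chaperone genes made up the largest group of named members with a shared role, 11 of 53, and they included the named members with the lowest LL minus LD values. A further 10 encode defence and signalling proteins, 3 are light-related, and 29 have other roles or none known. These groups were formed after the names of the members were seen. The median LL minus LD difference, averaged over the 4 settings, was -2.67 for the chaperone group, -1.52 for defence and signalling, -1.67 for the light-related genes, -1.87 for the other named members and -1.78 for the 91 without a single name. These differences are what chose the members, so they are given as descriptions without a test. Over all probe sets, 2.18% lay at -1 or lower in ALC::TOC1 with ethanol, 2.15% in ALC::TOC1 with mock, 3.14% in Col-0 with ethanol and 1.93% in Col-0 with mock, and the median difference averaged over the settings was 0.017.

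**Figure D1:**
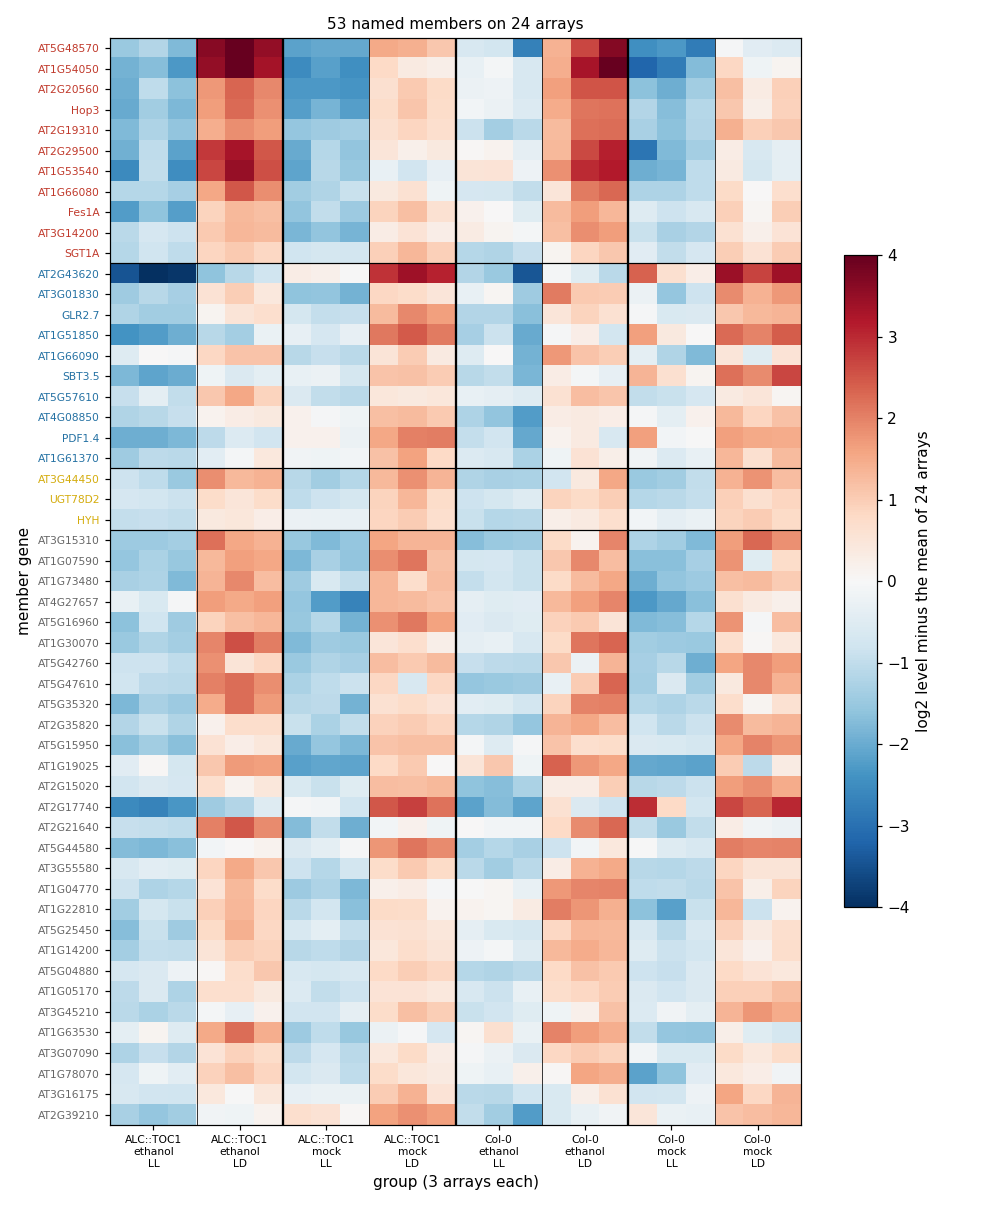
Log2 level of the 53 named members (rows) on each of the 24 arrays (columns), minus the gene's mean over the arrays; blue is lower and red higher. Row labels are coloured by role, with chaperones and co-chaperones in red, defence and signalling in blue, light-related genes in yellow and others in grey. LL columns are bluer than the LD columns of the same setting, while the chaperone block is reddest in ethanol-treated LD arrays and the defence block is reddest in mock-treated LD arrays.

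All values that follow are log2 levels per probe set, and levels of different probe sets are not compared with each other. AT5G48570, a co-chaperone of the FKBP type, had the most negative difference among named members, -3.71 as the mean of the settings. In ALC::TOC1 with ethanol its levels were 5.12, 5.44 and 4.82 in LL, against 10.24, 10.98 and 10.12 in LD. In ALC::TOC1 with mock they were 4.45, 4.55 and 4.55 in LL, against 8.10, 8.03 and 7.68 in LD. The LL arrays thus lay low in both treatments of this line. Both LL and LD arrays were higher with ethanol than with mock, with the larger gap in LD. In Col-0 with ethanol the levels were 5.96, 5.87 and 3.88 in LL, against 7.99, 9.27 and 10.26 in LD. In Col-0 with mock they were 4.14, 4.29 and 3.81 in LL, against 6.56, 6.15 and 6.03 in LD. The highest of the 12 LL arrays, 5.96, was below the lowest of the 12 LD arrays, 6.03. Averaged on the log2 scale, its LD level was 13.1 times its LL level.

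AT1G54050, which encodes a small heat shock protein, came next at -3.62, an LD level 12.3 times the LL level. With ethanol, ALC::TOC1 had 5.74, 5.94 and 5.33 in LL, against 11.14, 11.62 and 10.95 in LD. With ethanol, Col-0 had 7.33, 7.56 and 6.99 in LL, against 9.08, 10.93 and 11.60 in LD. LL and LD did not overlap in either line, but the Col-0 arrays from LD were spread more widely. Under mock, ALC::TOC1 had 5.10, 5.46 and 5.18 in LL, against 8.42, 8.0 and 7.85 in LD. Under mock, Col-0 had 4.44, 4.82 and 5.88 in LL, against 8.47, 7.45 and 7.74 in LD. Pooled over the settings the 12 LL and 12 LD arrays overlapped slightly, since the highest LL array, 7.56, came from ethanol-treated and the lowest LD array, 7.45, from mock-treated Col-0.

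The other small heat shock genes among the members were AT2G19310, AT2G29500 and AT1G53540. AT2G19310 had LL levels of 5.98 to 6.88 with a median of 6.40 and LD levels of 8.41 to 9.97 with a median of 9.08. It was the most even of these genes, with differences of -3.19 and -2.17 in ALC::TOC1 with ethanol and with mock, and of -2.99 and -2.51 in Col-0 with ethanol and with mock. AT2G29500 differed by -4.56 and -1.94 in ALC::TOC1 and by -2.41 and -1.77 in Col-0, again with ethanol and with mock. AT1G53540 differed by -4.90 and -1.12 in ALC::TOC1 and by -2.37 and -1.36 in Col-0. In both genes the difference was larger with ethanol than with mock in each line.

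The co-chaperones that work with Hsp70 and Hsp90 did not all have a larger difference with ethanol. AT2G20560, a DnaJ protein, had LL levels of 5.56 to 7.72 and LD levels of 8.24 to 10.44, a mean difference of -2.94. Hop3, which links Hsp70 to Hsp90, had LL levels of 5.87 to 7.96 and LD levels of 8.32 to 10.33, a mean difference of -2.73. In neither gene did the 12 LL arrays overlap the 12 LD arrays. Fes1A, a nucleotide exchange factor of Hsp70, differed by -2.05 and AT3G14200, another DnaJ protein, by -1.81. AT3G14200 differed slightly less with ethanol than with mock, by -2.06 against -2.13 in ALC::TOC1 and by -1.46 against -1.58 in Col-0. SGT1A, an Hsp90 co-chaperone also known from disease resistance, differed by -1.76. AT1G66080, related to the Hsp70 nuclear import carrier Hikeshi, had a mean difference of -2.16, with LL levels of 3.37 to 4.08 that lie near the low end of the array's range.

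The size of the LL minus LD difference in the chaperone group varied with the setting. Its median over the 11 genes was -3.54 in ALC::TOC1 with ethanol, -2.17 in ALC::TOC1 with mock, -2.41 in Col-0 with ethanol and -1.77 in Col-0 with mock. In 10 of the 11 the lowest of the 4 values was in ALC::TOC1 with ethanol, against 57 of all 144 members, and in 7 the value closest to 0 was in Col-0 with mock. The average level of the 11 genes on an array gives the levels behind these differences. With ethanol in ALC::TOC1 it was 6.02 ± 0.337 in LL and 9.75 ± 0.293 in LD, and with mock 5.88 ± 0.178 in LL and 8.18 ± 0.128 in LD (SD, n = 3 each). With ethanol in Col-0 it was 7.10 ± 0.283 in LL and 9.55 ± 0.671 in LD, and with mock 6.04 ± 0.210 in LL and 7.98 ± 0.369 in LD (SD, n = 3 each). The LL level with ethanol was thus lower in ALC::TOC1 than in Col-0 without overlap, 5.82 to 6.41 against 6.78 to 7.30, while LD levels with ethanol overlapped between the lines. Neither this difference within ethanol nor the variation of the light difference between settings was tested, the second because the rule used it.

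**Figure D2:**
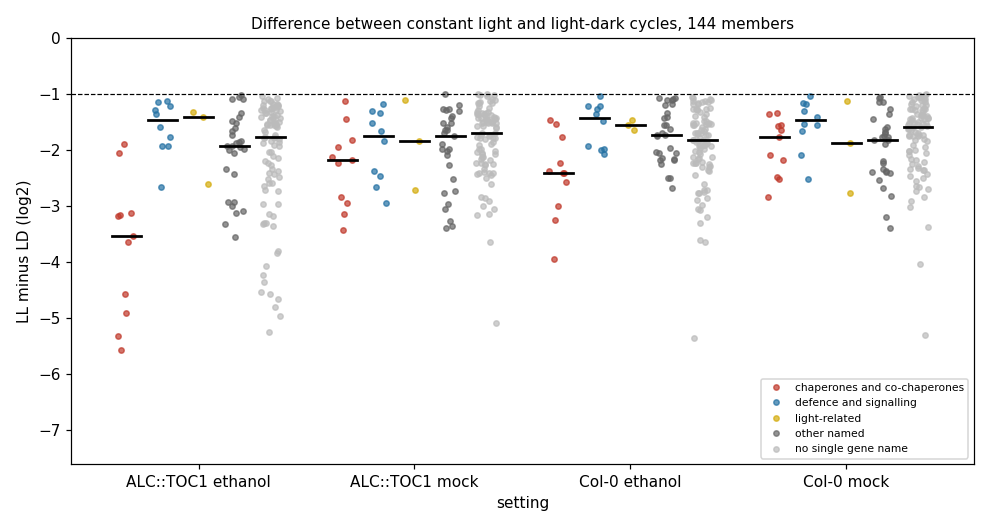
LL minus LD difference (log2, means of 3 arrays each) of each of the 144 members in each setting; points are members, coloured by role, black bars are medians of a group, and the dashed line is the threshold of -1. The chaperone median is -3.54 in ALC::TOC1 with ethanol and -1.77 in Col-0 with mock, whereas the defence medians stay between -1.75 and -1.42.

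The light-related members were AT3G44450, HYH and UGT78D2. AT3G44450, known as BIC2, inhibits cryptochromes and is itself induced by light. Its levels were 4.37, 4.18 and 3.70 in LL against 7.04, 6.49 and 6.58 in LD in ALC::TOC1 with ethanol, and 4.09, 3.81 and 4.04 in LL against 6.49, 7.03 and 6.54 in LD in ALC::TOC1 with mock. In Col-0 they were 3.98, 3.88 and 3.93 in LL against 4.42, 5.57 and 6.75 in LD with ethanol, and 3.70, 3.79 and 4.20 in LL against 6.57, 6.99 and 6.41 in LD with mock. All 12 LL arrays were at or below 4.37, and the LD arrays of ethanol-treated Col-0 were the most spread.

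HYH, a bZIP transcription factor and the homolog of HY5, had a smaller but very even difference. It had LL levels of 7.60 to 8.62 with a median of 8.11 and LD levels of 8.97 to 9.73 with a median of 9.41. Its LL minus LD values were -1.32 and -1.12 in ALC::TOC1 with ethanol and with mock, and -1.47 and -1.13 in Col-0 with ethanol and with mock. UGT78D2, a flavonoid 3-O-glucosyltransferase, had LL levels of 6.96 to 7.59 and LD levels of 8.60 to 9.42. The 12 LL arrays lay below the 12 LD arrays for each of these 3 genes.

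**Figure D3:**
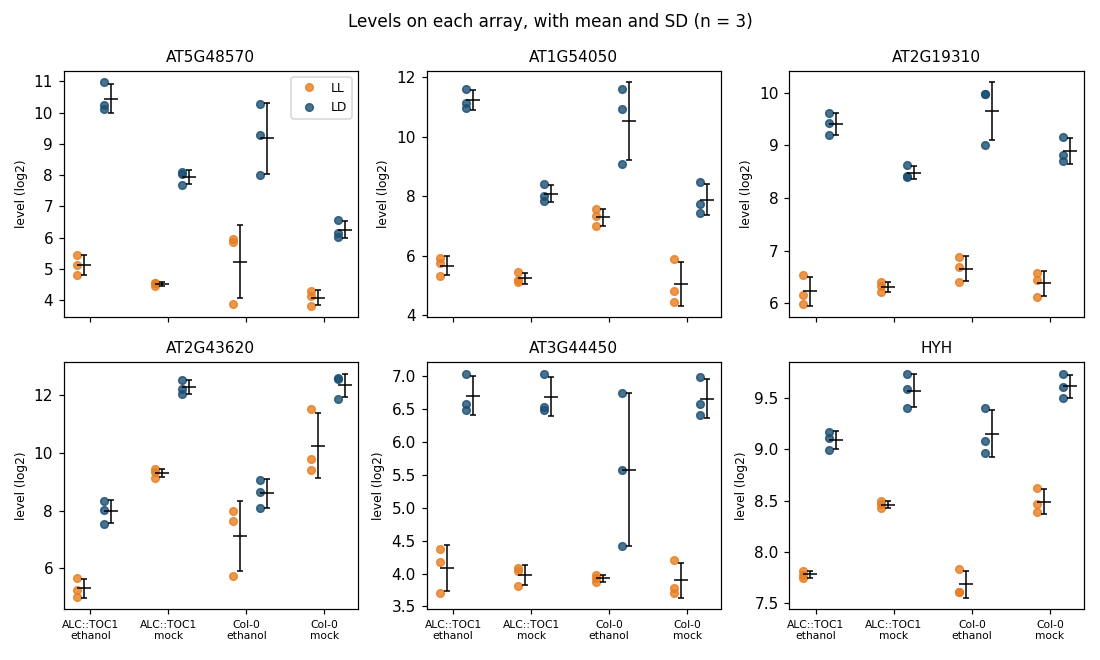
Log2 level of 6 members on each array, LL in orange and LD in blue, by genotype and treatment; horizontal bars are means and vertical bars SDs of 3 arrays. For each gene the LL arrays lie below the LD arrays of the same setting; AT5G48570 and AT1G54050 have their highest means in LD with ethanol, AT2G43620 and HYH are lower with ethanol in both light regimes, and AT3G44450 is spread widely in Col-0 LD with ethanol.

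The defence and signalling members were led by AT2G43620, a protein of the chitinase family, whose product class acts on fungal cell walls. In ALC::TOC1 with ethanol it had 5.68, 5.02 and 5.26 in LL, against 7.54, 8.04 and 8.34 in LD, and with mock 9.43, 9.34 and 9.14 in LL, against 12.03, 12.51 and 12.21 in LD. In Col-0 with ethanol it had 7.97, 7.65 and 5.73 in LL, against 9.07, 8.65 and 8.07 in LD, and with mock 11.51, 9.79 and 9.40 in LL, against 12.57, 11.85 and 12.53 in LD. Light and ethanol both separate these arrays, and the LL arrays with mock lay above the LD arrays with ethanol. AT3G01830, a calmodulin-like protein, had LL levels of 5.05 to 7.01 and LD levels of 7.37 to 9.04, a mean difference of -2.19.

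Other members of this group are the glutamate receptor GLR2.7 at -1.97, the receptor kinase AT1G51850 at -1.68, the TIR-NBS protein AT1G66090 at -1.56, the subtilase SBT3.5 at -1.49, the immune receptor kinase AT4G08850 (MIK2) at -1.42 and the defensin-like PDF1.4 at -1.31. The kinases AT5G57610 and AT1G61370 lay at -1.44 and -1.23. For AT1G66090 and PDF1.4 LL and LD arrays overlapped within a setting. The average level of the 10 genes with ethanol in ALC::TOC1 was 5.81 ± 0.0501 in LL and 7.41 ± 0.177 in LD, and with mock 6.85 ± 0.122 in LL and 8.78 ± 0.166 in LD (SD, n = 3 each). In Col-0 it was 6.23 ± 0.586 in LL and 7.78 ± 0.224 in LD with ethanol, and 7.31 ± 0.506 in LL and 8.86 ± 0.218 in LD with mock (SD, n = 3 each). In both lines these averages were lower with ethanol than with mock in either light regime. The chaperone average was higher with ethanol in Col-0 and in LD of ALC::TOC1, and in LL of ALC::TOC1 its ethanol and mock arrays overlapped, 5.82 to 6.41 against 5.71 to 6.06. The spread in Col-0 LL with mock came with replicate 1, the highest of its group in this average at 7.90, beside 7.02 for the lowest.

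Among the 29 other named members the lowest difference was that of AT3G15310, annotated as a pseudogene, with LL levels of 2.86 to 3.37, at the low end of the array's range, and LD levels of 4.77 to 6.91. AT1G07590 differed by -2.65, the hydrolase AT1G73480 by -2.47 and AT4G27657 by -2.44. AT1G73480 was even across the arrays, with LL levels of 5.05 to 6.39 and LD levels of 7.68 to 8.92. AT5G16960, AT1G30070, AT5G42760, the RING finger protein AT5G47610, AT5G35320 and AT2G35820 lay between -2.42 and -2.17. AT5G15950, an S-adenosylmethionine decarboxylase of polyamine synthesis, had LL levels of 5.71 to 7.68 and LD levels of 8.0 to 9.72. AT1G04770, known as SDI2 from sulfur deficiency, had LL levels of 5.26 to 7.14 and LD levels of 7.01 to 9.05. AT2G17740 had LL levels of 9.72, 7.55 and 6.03 in Col-0 with mock, against 9.44, 9.09 and 9.80 in LD, and so overlapped there. The rest of the group lay between -2.05 and -1.27. AT1G19025 was the only named member with a second probe set that was no member, which was dim at a mean level of 3.40 and differed by -0.23.

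The 91 members without a single name had mean differences of -5.10 to -1.15. The probe set at -5.10 had LL levels of 3.16 to 3.95 and LD levels of 7.74 to 9.02. Over all 144 members, a group mean under 4 occurred in LL for 21 probe sets and in LD for 0. That LL mean is near the low end of the array's range, while other LL groups of the same probe set could be higher, as for PDF1.4, whose LL arrays reached 7.48. The 3 LL arrays lay below the 3 LD arrays in each of the 4 settings for 137 members, against 5.61% of all probe sets, and all 12 LL arrays lay below all 12 LD arrays for 90 members, against 2.0%. These shares follow from the rule, so nothing is read from them.

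Of the members nearest to the threshold, AT1G63530, AT3G16175 and AT1G61370 had the value closest to 0 among their settings at -1.01, -1.03 and -1.03. AT5G25440, CML23 and IQD24 lay just outside, with -0.98 in one setting each, and with means over the settings of -1.37, -1.25 and -1.26. The rule thus cuts through a continuous range.

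Whether ethanol, genotype or both acted on the members was tested as averages over LL and LD, a comparison the rule did not use. All 24 arrays were fitted with limma, and calls were made at a Benjamini-Hochberg adjusted p under 0.05 over all probe sets. In ALC::TOC1, 85 members were called, against 27.4% of all probe sets. Of these, 48 were higher and 37 lower with ethanol than with mock, against 11.7% and 15.8% of all probe sets, so the members' shares were 33.3% and 25.7%. In Col-0, 97 members were called, against 29.4%. Of these, 61 were higher and 36 lower, against 13.2% and 16.2% of all probe sets, shares of 42.4% and 25%. The median ethanol effect of the members was 0.06 in ALC::TOC1 and 0.23 in Col-0, beside -0.01 and 0.01 over all probe sets.

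Averaged over LL and LD, most chaperone members were higher with ethanol and most defence members lower. In the chaperone group 9 of 11 were called higher in ALC::TOC1 and 10 of 11 in Col-0, and 0 were called lower in either line. With each array left out in turn, 8 to 9 were higher in ALC::TOC1 and 9 to 10 in Col-0, and 1 was called lower in Col-0 without replicate 3 of Col-0 LD ethanol. In ALC::TOC1 in LL the mean with ethanol was above that with mock for 5 of the 11 and below it for 6, with a median difference of -0.05, while in LD it was above for 10, with a median difference of 1.18. In Col-0 it was above for 10 of the 11 in LL and in LD, with median differences of 1.16 and 1.18. These values within a regime were not tested. In the defence and signalling group 7 of 10 were called lower and 1 higher in ALC::TOC1, and 7 of 10 lower and 2 higher in Col-0. With any 1 array left out, replicate 1 of Col-0 LL mock included, 7 were called lower in each line. The higher calls of this group were less stable, at 0 to 2 in ALC::TOC1 and 1 to 2 in Col-0. Of the light-related genes HYH was called lower in both lines and the other members of that group were not called. Among the other named members 8 were higher and 6 lower in ALC::TOC1, and 11 higher and 6 lower in Col-0. Among those without a single name 30 were higher and 23 lower in ALC::TOC1, and 38 higher and 22 lower in Col-0.

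Among the named members, those with the smallest adjusted p for ethanol were mostly ones that fell. AT2G43620 fell by 4.13 ± 0.34 in ALC::TOC1 (SE, limma, adjusted p = 8.1e-09) and by 3.42 ± 0.34 in Col-0 (limma, adjusted p = 1.68e-07). Its ethanol and mock arrays did not overlap within a light regime in either line. SBT3.5 had 5.77, 5.47 and 5.58 with ethanol against 7.29, 7.33 and 6.87 with mock in ALC::TOC1 in LL, and 7.40, 6.99 and 7.19 against 8.72, 8.75 and 8.59 in LD. In Col-0 it had 6.46, 6.59 and 5.74 with ethanol against 8.93, 8.21 and 7.69 with mock in LL, and 7.87, 7.50 and 7.24 against 9.79, 9.47 and 10.24 in LD. Every ethanol array was below every mock array of the same line and light regime. The effect was -1.53 in ALC::TOC1 (limma, adjusted p = 1.63e-06) and -2.15 in Col-0 (limma, adjusted p = 2.04e-08).

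AT5G44580 had an effect of -1.66 in ALC::TOC1 and -1.52 in Col-0, averaging 8.97 with ethanol and 10.63 with mock in ALC::TOC1. The effect on AT2G39210, a transporter of the major facilitator family, was -1.8 in ALC::TOC1 and -1.54 in Col-0. That on AT1G51850 was -2.45 in ALC::TOC1 and -2.24 in Col-0, and that on PDF1.4 was -2.3 in ALC::TOC1 and -1.68 in Col-0. All of these passed the test in both lines. MIK2 (AT4G08850) had an effect of -0.98 in ALC::TOC1 and -1.2 in Col-0. That these receptor, protease and defensin genes were lower in LL than in LD was fixed by the rule. They were named here for their small adjusted p for ethanol, so their shared fall is not read as a finding. Of the 10 defence and signalling members, 7 were called lower with ethanol in each line. AT5G57610 was called higher, by 0.43 in ALC::TOC1 and 0.57 in Col-0. AT1G66090 was called higher in Col-0 only, but its effects were close, 0.72 in Col-0 and 0.64 in ALC::TOC1. Its interaction was not called in the fit without array weights. AT3G01830 was called in neither line, at 0.19 in ALC::TOC1 and 0.02 in Col-0.

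Among the genes that rose, AT3G14200 gained 0.87 ± 0.11 in ALC::TOC1 and 1.18 ± 0.11 in Col-0 (SE, limma, adjusted p = 5.67e-06 and 1.25e-07). AT1G63530, of unknown function, rose by 1.56 in ALC::TOC1 and 1.77 in Col-0. The small heat shock gene AT1G54050 rose by 1.78 and 2.45, AT1G53540 by 1.47 and 2.40, AT2G29500 by 1.20 and 2.29, and AT5G48570 by 1.56 and 2.04 in ALC::TOC1 and Col-0. In ALC::TOC1 the values of AT1G53540 and AT2G29500 come from LD, with means of 10.40 and 9.95 with ethanol against 7.04 and 7.43 with mock. Their LL means were 5.50 and 5.39 with ethanol against 5.92 and 5.49 with mock. AT1G54050 and AT5G48570 had higher means with ethanol in both regimes of this line, with the larger gap in LD. Their means were 5.67 and 5.12 with ethanol against 5.25 and 4.52 with mock in LL. In LD they were 11.24 and 10.45 against 8.09 and 7.94. The weakest called chaperone in ALC::TOC1 was AT2G19310, at 0.42 ± 0.15 there (SE, limma, adjusted p = 0.038) and 0.52 ± 0.15 in Col-0 (adjusted p = 0.0103). In ALC::TOC1 its LL means were 6.23 with ethanol and 6.31 with mock, against 9.41 and 8.49 in LD. AT1G66080 likewise had 3.55 and 3.60 in LL of this line, against 6.72 and 5.04 in LD. Fes1A passed the test in Col-0 with 0.65 but not in ALC::TOC1, where its effect was -0.22 (limma, adjusted p = 0.379), and the difference between the lines did not pass (limma, adjusted p = 0.069). SGT1A passed in neither line, with -0.20 in ALC::TOC1 and -0.29 in Col-0. AT2G21640, a transcript used as a marker of oxidative stress, rose by 1.38 in both lines; it was named after its values were seen.

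**Figure D4:**
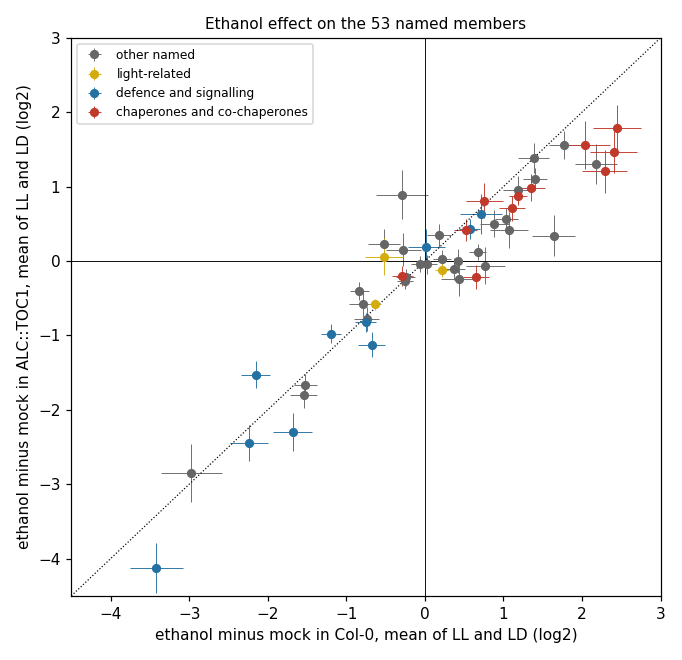
Ethanol minus mock (log2, averaged over LL and LD) of the 53 named members in ALC::TOC1 (vertical) against Col-0 (horizontal); lines through points are standard errors, and the dotted line marks equal effects. Chaperones lie mostly at the upper right, with Col-0 effects up to 2.45, and defence and signalling genes mostly at the lower left, down to -4.13 in ALC::TOC1.

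The lines were also compared without ethanol. Under mock, 24 members were called, against 10.5% of all probe sets. Of these, 10 were higher and 14 lower in ALC::TOC1 than in Col-0, against 5.61% and 4.86% of all probe sets, shares of 6.94% and 9.72%. With array weights in the fit, 45 members were called in place of 24. The share of all probe sets called in that fit is not given here, so the rise is not read as a trait of the members. Among the named members AT5G15950 had the smallest adjusted p; a probe set without a name had a smaller one (8.1e-08, a difference of 1.38). The mock levels of AT5G15950 in ALC::TOC1 were 5.71, 6.18 and 5.95 in LL and 8.87, 8.95 and 8.92 in LD, against 7.14, 7.14 and 7.02 in LL and 9.27, 9.72 and 9.49 in LD in Col-0. Every ALC::TOC1 array lay below every Col-0 array of the same light regime, and the difference was -0.87 ± 0.10 (SE, limma, adjusted p = 1.39e-05). SBT3.5 was lower in ALC::TOC1 by -1.13 ± 0.18 (limma, adjusted p = 0.00032), although its LL arrays came close, 6.87 to 7.33 in ALC::TOC1 and 7.69 to 8.93 in Col-0.

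AT3G01830 and AT1G04770 were also lower in ALC::TOC1 under mock, by -0.90 (limma, adjusted p = 0.0155) and -0.55 (adjusted p = 0.0163). AT3G01830 missed the threshold without replicate 1 of Col-0 LL mock (adjusted p = 0.0546). AT1G04770 missed it without replicate 3 of ALC::TOC1 LL mock (adjusted p = 0.0545) and without replicate 1 of Col-0 LD mock (adjusted p = 0.0532). AT5G48570 was higher by 1.06 (limma, adjusted p = 0.0371), with LD mock levels of 7.68 to 8.10 in ALC::TOC1 and 6.03 to 6.56 in Col-0, but it was not called with trend and robust eBayes (adjusted p = 0.0663) or without any one of 10 arrays (adjusted p up to 0.0848). AT3G14200 was lower by -0.36 (limma, adjusted p = 0.0472) and was not called with the replicate number as a block (adjusted p = 0.0552) or with each array centred on its median (adjusted p = 0.0757).

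Whether the ethanol effect differed between ALC::TOC1 and Col-0 was tested as the interaction, which was called for 3 of the 144 members, against 1.46% of all probe sets, with 1 higher and 2 lower, against 0.958% and 0.506%. At an unadjusted p under 0.05 the count was 45 of the 144 members, beside 3079 of all 22746 probe sets. None of the 53 named members was called at the adjusted threshold in the fit without array weights. With array weights more members were called, as given in the last section. The 3 probe sets have no gene name here and were chosen after their values were seen. For 262882_at the ethanol effect was 1.35 in ALC::TOC1 and 0.56 in Col-0, an interaction of 0.79 ± 0.15 (SE, limma, adjusted p = 0.00743). For 254343_at it was 0.26 in ALC::TOC1 and 1.27 in Col-0, an interaction of -1.02 ± 0.21 (limma, adjusted p = 0.0132), and for 250781_at 0.36 and 1.60, an interaction of -1.25 ± 0.25 (limma, adjusted p = 0.0109).

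Beyond the effects of the groups, members of a role group also varied together between replicates. After each group's mean was taken off, the 11 chaperone genes had a median pairwise correlation of 0.686 over the 24 arrays (55 pairs) and the 10 defence and signalling genes one of 0.562 (45 pairs). The median was 0.154 within the other named members, 0.168 over all members and 0.0075 over all pairs of probe sets. Between a chaperone and a defence gene it was 0.209. These pairs share arrays, so the values are descriptions. The chaperone average was most spread in Col-0 LD with ethanol, from 8.78 to 10.04, and the defence average in Col-0 LL with ethanol, from 5.55 to 6.61. Without replicate 1 of Col-0 LD with ethanol, which had the lowest chaperone average, 10 of 11 chaperone members were still higher with ethanol in Col-0.

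The rest of the chaperone network was followed in a list of 53 heat shock and co-chaperone genes, composed after the members' names were seen, of which 24 had a named probe set. Averaged over the settings 20 of the 24 were lower in LL by limma, 2 were higher and 2 not called, against 24.2% and 26.6% of all probe sets, and their median was -1.93. The list was built around the members' names and the light difference chose them, so these counts are descriptions. Since 11 are members by rule and AT5G51440 also met the threshold, the fall of these was fixed in advance. Of the other 12, 8 were lower, 2 higher and 2 not called, with a median of -0.85. Among these, the small heat shock genes AT5G37670, AT1G52560 and ATHSP22.0 differed by -4.59, -4.47 and -4.13 in ALC::TOC1 with ethanol and by -0.41, -0.54 and -0.42 with mock. In Col-0 they differed by -2.88, -2.67 and -2.02 with ethanol and by -0.63, -0.54 and -0.39 with mock. The mock settings thus kept them out of the members. Their LL arrays lay at 3.43 to 3.92, 2.71 to 3.74 and 3.38 to 3.97, near the low end of the array's range. Their lowest LD arrays, at 3.88, 3.13 and 3.62, lay there too. RMA compresses differences at such levels, so the small mock differences are not read as a lack of a light difference. Hsp70-2 differed by -1.53 and AT3G09440, another cytosolic Hsp70, by -1.21 as means of the settings. Hop2 was lower by -0.93 and Hop1 higher by 0.22, beside -2.73 for Hop3, and Fes1B was higher by 0.85, beside -2.05 for Fes1A. AT3G09440 and these Hop and Fes1 genes were picked as examples after their values were seen.

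**Figure D5:**
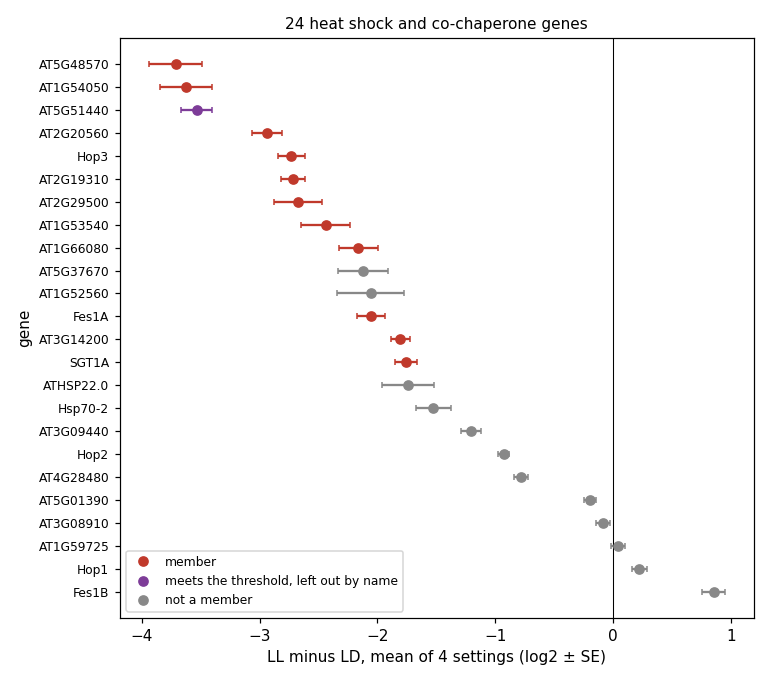
LL minus LD difference (log2, mean of the 4 settings, bars are standard errors) of the 24 measured heat shock and co-chaperone genes, ordered by value. Members are red, AT5G51440, left out by name, is purple, and other genes are grey. The red and purple genes lie at -1 or lower by the rule. With them 20 lie below 0 past the test, and Hop1 and Fes1B lie above 0.

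Lists for other processes had few named probe sets. Of 10 dark and sugar starvation genes, 2 were lower, 3 higher and 5 not called, with AT4G33150 at -0.41, BZIP53 at 0.43, ATL8 at 0.35 and MCCA at 0.34. Of these BZIP53 kept its sign in every setting. AT4G33150 was at 0.46 and 0.19 in ALC::TOC1 with ethanol and with mock but at -1.59 and -0.70 in Col-0, and in Col-0 with ethanol ATL8 was at -0.36 and MCCA at -0.62. Of 5 cold and dehydration genes, COR27 was lower by -1.28, AT4G33980 and LTI30 were higher by 1.09 and 0.46, and 2 were not called. COR15A, which met the rule and was left out by name, is not among these 5. Of 2 starch genes PWD was lower by -0.50, and the 2 auxin and growth genes measured were not called. HYH was the only measured gene of the light signalling list. The clock list, which does not hold GI, and the nitrogen and sulfur assimilation and low oxygen lists had no gene among the named probe sets.

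The arrays are of whole seedlings, so fewer cells of a type and less RNA per cell cannot be told apart. Of 11 listed root, guard cell, vascular and dividing cell markers 3 were measured. The root hair genes EXPA7 and EXPA18 were higher in LL by 0.65 and 0.70 and the guard cell gene FMA was lower by -0.63. Over all arrays EXPA7 lay at 3.78 to 5.23 and EXPA18 at 3.35 to 4.55, near the low end of the array's range. The sum of the 3 log2 levels ran from 13.3 to 14.6 in LL group means and from 13.3 to 13.7 in LD group means. Opposite changes of the 3 genes partly cancel in this sum. Of 8 leaf photosynthesis markers 3 were measured. SBPASE and ATPC1 were higher in LL by 0.33 and 0.48 and RCA, at group means of 12.8 to 13.2 over both regimes, was not called. Their sum was 34.6 to 35.7 in LL group means, against 33.0 to 35.1 in LD group means. The 3' minus 5' difference of GAPDH, which rises as RNA degrades, differed between LL and LD by 0.256 and 0.162 in ALC::TOC1 with ethanol and with mock, and by -0.110 and 0.362 in Col-0 with ethanol and with mock. That of actin was below 0 in 3 settings, with -0.401 and -0.475 in ALC::TOC1 and -0.544 and 0.128 in Col-0, and that of ubiquitin was -0.0092 and 0.065 in ALC::TOC1 and -0.087 and 0.183 in Col-0, each with ethanol and with mock. The part of these markers and of RNA quality in the members' values was not tested.

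The named members shared few other features. All 53 were found in RefSeq's TAIR10.1 annotation, where 51 are protein-coding. Their median gene length was 1831 bases, against 2117 for all named probe sets that matched. Only AT1G66080 and AT1G66090, a Hikeshi-like and a TIR-NBS gene, are neighbours in the genome, with LL minus LD values of -2.16 and -1.56.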

How the data were processed

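The authors deposited one log2 value per probe set and array. Per the submitters' processing notes these log2 values came from RMA as implemented in affy (version not given in the sources used here). RMA subtracts background, sets all arrays to one distribution and summarises probes, and it compresses differences of dim probe sets. The values ran from 2.16 to 13.7, with array medians of 5.14 to 5.41. The precision is limited by the number of arrays. The 64 control probe sets among 22810 were left out. The platform annotation gave 1 gene name for 13513 of the 22746 others, several for 503 and none for 8730, and 13436 matched RefSeq (TAIR10.1). No coordinates are given, since the array files name no build.

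All 24 arrays were fitted in R 4.3.3 using lmFit and eBayes of limma 3.58.1 (a mean per group, 16 residual and 4.87 prior degrees of freedom). The fit was tested on simulated data. Tables were made with pandas 2.3.3 in Python 3.11.15. The 4 tests were ethanol minus mock in ALC::TOC1 and in Col-0, ALC::TOC1 minus Col-0 under mock, and their interaction, each averaged over LL and LD and two-sided. The comparisons that involve the mock groups share those arrays. LL minus LD was counted over all probe sets and lists.

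The named genes were the 20 named members with the most negative mean LL minus LD, members on a list, the 6 called members with the smallest adjusted p in each test, 3 named probe sets on either side of the threshold, and up to 4 called non-members of each list. Others are examples of a role group or list, chosen after their values were seen. The members and lists were chosen with earlier results of these data known, and the heat shock list and role groups after the members' names were seen. Alternatives were quantile normalisation again, median centring, leaving out dim probe sets, trend and robust eBayes, array weights, the compared groups alone, the replicate number as a block, each array left out, and thresholds of -0.8 and -1.2. Arrays with the same replicate number did not deviate together (correlations of -0.399 to 0.488, median -0.002, 84 pairs), so the numbers were not taken as pairs.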

Additional observations from a re-analysis of the deposited data

Results flagged for a closer look

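The ethanol effect differed between the lines, by limma's interaction test, for 3 members without a gene name. Their values are -1.02 for 254343_at, 0.788 for 262882_at and -1.25 for 250781_at, with the Col-0 effect of ethanol subtracted from the effect in ALC::TOC1. Averaged over LL and LD, 254343_at had 9.24 with ethanol and 8.98 with mock in ALC::TOC1, against 10.06 with ethanol and 8.79 with mock in Col-0. 262882_at had 8.22 with ethanol and 6.87 with mock in ALC::TOC1, against 7.11 and 6.55 in Col-0. 250781_at had 8.99 with ethanol and 8.63 with mock in ALC::TOC1, against 9.62 and 8.01 in Col-0. LL and LD arrays of 250781_at overlapped within a setting. The cause was not tested.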

How the results depend on the processing

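The number of members was 222 at a threshold of -0.8 and 94 at -1.2. It was 142 after quantile normalisation again (139 shared with the 144), 148 after median centring (141 shared), 123 with dim probe sets left out, and 133 to 151 with an array left out. Array weights gave 45 members for the genotype difference under mock, in place of 24, and 19 for the interaction, in place of 3. The shares of all probe sets called with array weights are not given here, so these counts are not read as a trait of the members. With each array left out in turn, the members called were 73 to 90 for ethanol in ALC::TOC1, 92 to 101 for ethanol in Col-0, 17 to 30 for genotype under mock, and 3 to 8 for the interaction. The interaction count was 5 without replicate 3 of ALC::TOC1 LD ethanol, replicate 2 of ALC::TOC1 LL ethanol or replicate 3 of Col-0 LL mock. It was 6 without replicate 1 of ALC::TOC1 LL ethanol, replicate 1 of Col-0 LD mock or replicate 3 of Col-0 LL ethanol. It was 8 without replicate 1 of Col-0 LD ethanol and 7 without replicate 3 of that group. Over all probe sets LL minus LD was called for 11057 to 11504, against 11556 with all arrays. The replicate number as a block gave 85, 97, 23 and 3 members for ethanol in ALC::TOC1 and in Col-0, genotype and interaction, and AT3G14200 was the only named call it ended (adjusted p = 0.0552). Of 647 combinations of a named call and an alternative, 617 stayed past the threshold, 30 did not and 0 changed sign. The 30 were all genotype differences under mock. AT5G48570 was lost in 11, with trend and robust eBayes (adjusted p = 0.0663) and 10 left-out arrays (up to 0.0848). AT3G14200 was lost in 16, quantile normalisation (0.0611) and 13 left-out arrays (up to 0.137) among them. For both the cause was not tested. AT1G04770 was lost in 2 and AT3G01830 in 1.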
